A study of Mus musculus with 12 samples.

Results

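Testis RNA of Wobbler mice carrying a modifier was hybridised directly against wildtype testis RNA on 4 two-colour cDNA arrays, and the ratios of all probes with a gene symbol are described here. These 4 arrays, chosen by their titles, belong to a set of 12, whose other arrays compared Wobbler with wildtype (4 arrays) and the modifier with Wobbler (4 arrays). Each channel held RNA pooled from 3 males, and all pools, the wildtype ones included, came from mice on a Castaneus background. The genotypes are labelled Wobbler modifier and wildtype, with no age and no name for the modifier locus. Whether the 4 arrays used different pools is not stated, so p-values reflect variation from array to array that may be technical. The modifier RNA was labelled with Cy5 on replicates 1 and 2 and with Cy3 on replicates 3 and 4.

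Wobbler is a recessive mutation of Vps54, a subunit of the GARP complex, which tethers vesicles returning from endosomes to the trans-Golgi network. Mutant mice lose motor neurons, and the males are sterile, with round-headed sperm in which the acrosome, a vesicle of Golgi origin, does not form properly. Spermatids pass through a long period without cell division in which histones are exchanged for transition proteins and then protamines, the tail and its sheaths are built, and many transcripts are stored before they are translated. Leydig cells lie between the tubules and make testosterone from cholesterol. No probe was named for Vps54, so the mutated gene has no value here.

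Values are log2 ratios of modifier over wildtype, after the ratios of replicates 3 and 4 were multiplied by -1. A negative value is taken as less RNA with the modifier; this direction is likely, from titles and dye convention, but not stated. The 4 arrays held 19421 to 19584 usable spots each. The probes named 9930 genes, of which 9139 were tested because each comparison had measured them on 3 or 4 arrays, while 791 were not. The median over all named genes was 0.15 and 0.12 on replicates 1 and 2 and -0.19 and -0.10 on replicates 3 and 4, a shift that changed sign with the dyes. Since only ratios were used, the presence of testis markers cannot be read, only their difference between the channels. In RNA from whole testis, fewer cells of a type and less RNA per cell cannot be told apart.

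The question was which transcripts differ between testis with the modifier and wildtype testis. Almost all genes that passed the test were lower with the modifier, if the ratios run in the likely direction; in the opposite direction each lower count here would read as higher and each higher one as lower. Of 14729 features tested, 103 were lower (0.699%) and 5 were higher (0.0339%), or 0.733% called in all, at a limma adjusted p under 0.05. Among the 9139 named genes 63 were lower (0.689%) and 1 was higher (0.0109%). Counts of calls in the gene lists below are to be read beside these shares. Each of these 64 genes, chosen by the test, had the same sign on all 4 arrays. Over all named probes the arrays were only weakly alike. As a description, Pearson's r was 0.179 and 0.151 between arrays of the same dye orientation and -0.008 to 0.0725 between those of opposite orientation, and Spearman's rho was 0.117 to 0.279 over the 6 pairs. Over all named genes, passing or not, 1034 lay below 0 on every array (11.3%) and 707 above 0 (7.74%). The 63 lower genes had a median log2 ratio of -0.93, and 21 of them were at least 2-fold lower. Their median was -0.80 on replicate 1, -0.78 on replicate 2, -1.15 on replicate 3 and -0.97 on replicate 4. Replicate 3 held the lowest value for 48 of the 63 and replicate 2 for 0. Of the 64 called genes 31 stood in at least 1 of 34 gene lists, 16 of them in that of late spermatids, and 33 stood in none.

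The number of calls rests on several choices. The spread of each gene was estimated over all 12 arrays, and the 4 arrays fitted alone gave 4 calls, among them Cyp17a1 and Prm2, or 0 with a dye term. Without replicate 1, 2 or 3 the count of calls was 20, 21 and 20, and without replicate 4 it was 49. With the arrays scaled to equal spread there were 370 lower and 69 higher calls, so that 15.7% were higher against 4.63% above. Of the 64 named genes, 10 passed whichever of the 4 arrays was left out, namely Cyp17a1, Spz1, Amigo2, Oaz3, Uck1, Mtdh, Smcp, Tex36, 1700034E13Rik and Psma6.

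**Figure D1:**
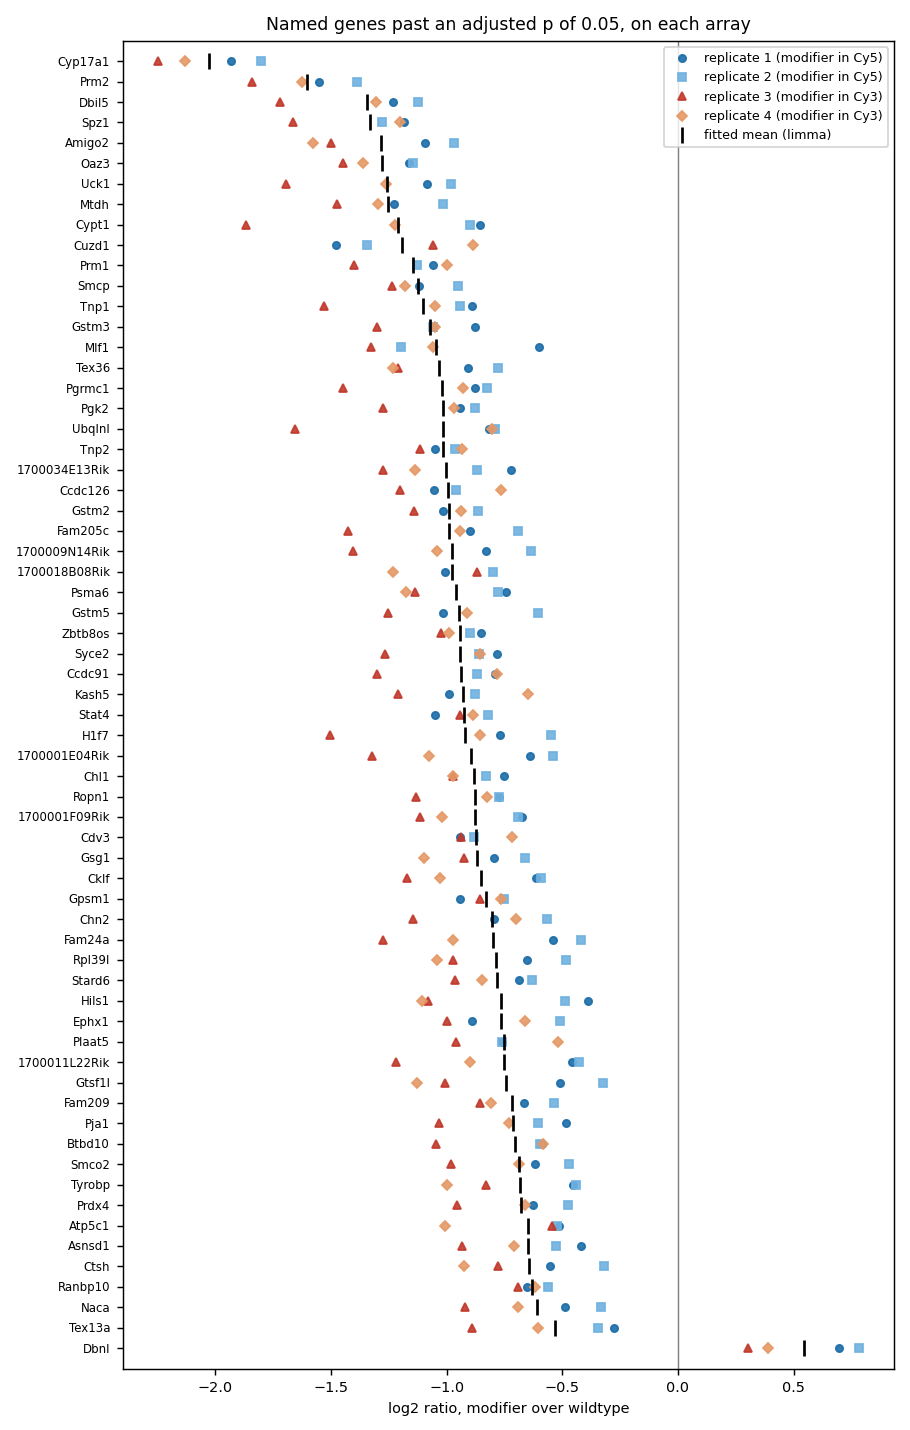
Log2 ratio of modifier over wildtype (horizontal axis) of the 64 named genes past an adjusted p of 0.05, with 1 point for each of the 4 arrays and a black tick for the fitted mean. Of these genes 63 lie below 0 on every array, and Dbnl lies above 0 on every array; replicate 3 is the lowest point of 48 of the 63.

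Proteins that compact sperm DNA made up one group of lower genes. Of 9 tested genes for transition proteins, protamines and spermatid histones, 6 were lower and 0 were higher, with a median of -0.92 against 0.00 over all named genes. Prm2, a protamine made as a precursor, had log2 ratios of -1.55, -1.39, -1.84 and -1.62 on replicates 1 to 4. The fitted mean was -1.60 ± 0.21 (SE, n = 4), or 3.04-fold lower, with an adjusted p of 0.00867. Both Prm2 probes were low, at -1.58 and -1.63. Prm1, the other protamine, stood at -1.06, -1.13, -1.40 and -1.0, and its mean of -1.15 ± 0.16 (SE, n = 4) had an adjusted p of 0.0098. The arrays lay close together for both genes, and none came near 0.

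Tnp1, the more abundant transition protein, had ratios of -0.89, -0.94, -1.53 and -1.05, with a mean of -1.10 ± 0.13 (SE, n = 4) and an adjusted p of 0.0046. Tnp2 was even across the arrays, at -1.05, -0.96, -1.11 and -0.93, with a mean of -1.01 ± 0.13 (SE, n = 4) and an adjusted p of 0.0067. The linker histones of spermatids were lower as well. H1f7 had a mean of -0.92, although its arrays ran from -0.55 on replicate 2 to -1.51 on replicate 3. Hils1 had a mean of -0.77, with replicates 1 and 2 at -0.39 and -0.49 and replicates 3 and 4 at -1.08 and -1.11, so its fall was larger in the orientation with the modifier in Cy3.

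The other 3 members of this group did not pass and are named here after their values were seen. H2al2a was at -0.31, Prm3 at -0.22 and H1f6, a linker histone that is already made in spermatocytes, at 0.00. Without replicate 1 or replicate 3 the group had 0 genes past the threshold, without replicate 2 it had 1 and without replicate 4 it had 3. Prm2 and Prm1 are neighbours in the gene order of assembly GRCm38.p6, as are Gstm3 and Gstm2 among the genes described further on.

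Many genes of spermatids are switched on by the factor CREM through cAMP response elements close to their start, so the promoters of the lower genes were searched for such elements. The motif was TGACNTCA, or TGANGTCA on the other strand, in the 250 bases before the start, and TGACGTCA fits both forms. Of the 63 lower genes 48 had a promoter in the RefSeq table, and 10 of these 48 held the motif (20.8%). Among all 27025 genes in that table, on the arrays or not, 2310 held it (8.55%). The share among the genes tested on the arrays was not counted, so the 2 shares come from unlike sets, and their difference was not tested. The 10 were Prm1, Tnp1, Gsg1, Mlf1, Fam209, 1700009N14Rik, Gpsm1, Fam24a, Ropn1 and Smco2. A match is a description of letters and not a site. The 120 bases before the start are shown for 4 of these genes and for Prm2 and Tnp2, which hold no match, because the set holds the 4 genes of protamines and transition proteins that were lower, with and without a match. Capitals mark the motif.
Prm1, chr16:10796824-10796943, minus strand: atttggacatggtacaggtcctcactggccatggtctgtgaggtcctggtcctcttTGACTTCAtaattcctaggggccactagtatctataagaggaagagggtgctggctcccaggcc
Tnp1, chr1:73015900-73016019, minus strand: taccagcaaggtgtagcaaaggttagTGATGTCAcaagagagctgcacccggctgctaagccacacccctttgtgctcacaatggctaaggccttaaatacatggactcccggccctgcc
Gsg1, chr6:135254337-135254456, minus strand: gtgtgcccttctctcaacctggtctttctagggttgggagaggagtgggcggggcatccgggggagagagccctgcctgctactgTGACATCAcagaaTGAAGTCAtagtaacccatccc
Mlf1, chr3:67373977-67374096, plus strand: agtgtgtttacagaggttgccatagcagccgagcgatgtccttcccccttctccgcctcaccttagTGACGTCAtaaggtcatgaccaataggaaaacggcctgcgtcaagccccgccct
Prm2, chr16:10792106-10792225, minus strand: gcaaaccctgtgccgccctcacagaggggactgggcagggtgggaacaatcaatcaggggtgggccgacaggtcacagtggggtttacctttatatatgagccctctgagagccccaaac
Tnp2, chr16:10788656-10788775, minus strand: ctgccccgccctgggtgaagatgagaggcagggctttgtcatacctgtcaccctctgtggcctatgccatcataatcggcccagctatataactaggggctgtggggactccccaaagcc
The first motif base lay 64 bases before the start in Prm1, 94 in Tnp1, 54 in Mlf1 and 35 in Gsg1, which held 2 matches. The strand given is that of the gene, the sequences run 5′ to 3′ on it, and coordinates are those of GRCm38.p6.

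Genes of the late spermatid list as a whole stood well below the other genes. Of 62 tested members 16 were lower (25.8%, against 0.689% of all named genes) and 0 higher, and the other 46 did not pass. The median was -0.52. On the single arrays the list's median was -0.52, -0.49, -0.69 and -0.57, below the median of all named genes of each array, and 45 of the 62 members lay below 0 on every array. The list was chosen with these data known, so its direction is no independent evidence. Without replicate 1 to 4 in turn, 4, 5, 4 and 11 members were lower.

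**Figure D2:**
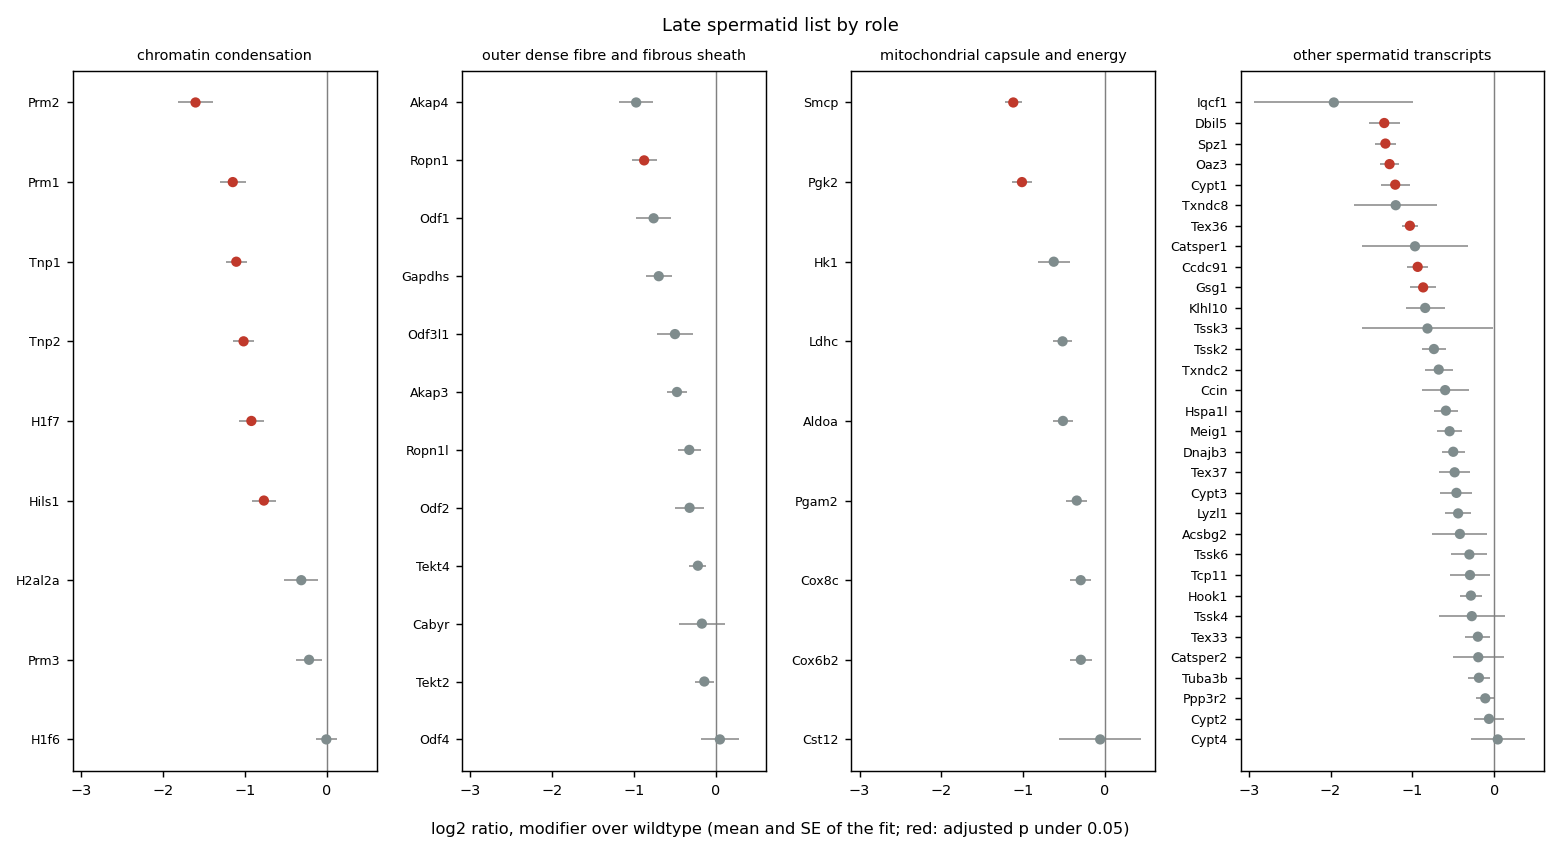
Fitted log2 ratio of modifier over wildtype with its SE (horizontal axis) for the 62 tested members of the late spermatid list, in 4 panels by role; red points passed an adjusted p of 0.05. All 16 red points lie below 0, and 6 of them are among the 9 genes of chromatin condensation.

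Genes of the tail and of its energy supply followed with smaller counts. Smcp, a protein of the capsule around sperm mitochondria, had ratios of -1.12, -0.95, -1.24 and -1.18. The mean of -1.12 ± 0.10 (SE, n = 4) was 2.18-fold lower, with an adjusted p of 0.000995. Pgk2, the phosphoglycerate kinase of male germ cells, stood at -0.94, -0.88, -1.27 and -0.97, with a mean of -1.02 ± 0.13 (SE, n = 4). These were the only 2 of 9 members for capsule and energy past the threshold, and the median of the 9 was -0.52.

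Among 12 genes of outer dense fibres and fibrous sheath, Ropn1, a sheath protein that binds A-kinase anchors, was lower at -0.88 and 11 did not pass. Gapdhs, the sperm glyceraldehyde phosphate dehydrogenase, had a mean of -0.70 ± 0.16 (SE, n = 4) with an adjusted p of 0.1. Its 2 probes gave -0.85 and -0.55, and the first passed when probes were fitted singly, while the averaged gene did not. Akap4 and Odf1, the major proteins of sheath and dense fibres, had means of -0.97 and -0.76 and also did not pass; they are named after their values were seen. The median of these 12 genes was -0.40, and 6 of them lay below 0 on every array. In the glycolysis list Pgk2 was the only 1 of 23 genes called. Ldhc, the lactate dehydrogenase of germ cells, had ratios of -0.36, -0.42, -0.73 and -0.57 and an adjusted p of 0.0955. The germ cell isozymes had a median of -0.43 and the somatic ones of -0.28.

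Further spermatid transcripts made up the largest role, with 7 of 32 lower and a median of -0.57. Dbil5, an endozepine-like peptide of spermatids, had ratios of -1.23, -1.12, -1.72 and -1.31, with a mean of -1.35 ± 0.19 (SE, n = 4). Spz1, a leucine zipper transcription factor of the testis, stood at -1.18, -1.28, -1.66 and -1.20, and its mean was -1.33 ± 0.13 (SE, n = 4). The 2 probes of Spz1 gave -1.42 and -1.25. For both genes replicate 3 was the lowest array while the other 3 lay close together.

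Oaz3, the antizyme that limits polyamines in spermatids, had ratios of -1.16, -1.15, -1.45 and -1.36, with a mean of -1.28 ± 0.12 (SE, n = 4) and an adjusted p of 0.000995. Cypt1, a cysteine-rich protein of the perinuclear theca, was less even, at -0.85, -0.90, -1.87 and -1.22, with a mean of -1.21 ± 0.18 (SE, n = 4). Tex36 was at -1.03, Ccdc91 at -0.94 and Gsg1, a germ cell protein, at -0.87. The 3 probes of Ccdc91 lay between -0.87 and -1.04. Those of Gsg1 differed, at -0.62 and -1.12, and only the second passed when probes were fitted singly. Tssk2, a spermatid kinase, was just outside the threshold with a mean of -0.74 and an adjusted p of 0.056, where Hils1 was just inside at 0.0487.

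The list of genes named for expression in the testis or for spermatogenesis held 3 lower genes of 71, Tex36, Gsg1 and Tex13a, with a median of -0.22. Tex13a had the smallest fall of the 63 genes, -0.53, with replicates at -0.28, -0.35, -0.89 and -0.60. Histones as a family were represented by 21 tested genes, of which H1f7 alone was called and the median was -0.17.

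The acrosome is the structure that the Wobbler mutation disturbs. Of 33 tested acrosome genes 0 passed in limma's test in either direction, and the median was -0.24. At an unadjusted p under 0.05 there were 9, all lower. At that level stood 7.37% of all named genes, 528 lower and 146 higher. Other settings gave calls, all lower, with 5 acrosome genes when arrays were scaled to equal spread, 8 with array weights and 2 with 2 genotype coefficients. Adam3, a surface protein needed for sperm to reach the egg, came nearest with ratios of -0.81, -0.47, -1.01 and -0.44 and an adjusted p of 0.0893. Spaca9 had a mean of -1.05 and an adjusted p of 0.137, with replicate 3 at -1.87. Crisp2 stood at -0.86 and Spaca1, an acrosomal membrane protein whose loss gives round-headed sperm, at -0.51, both without passing. In a list of 13 genes whose loss is linked to round-headed sperm, 0 passed, 2 were under an unadjusted p of 0.05, and the median was -0.07. Neither this list nor that of the acrosome need be complete, so genes outside them are not covered by these counts.

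Earlier germ cells gave 2 calls. Of 20 meiotic spermatocyte genes 2 were lower and 0 higher, against 0.689% lower among all named genes, while the median was -0.03. Syce2, of the central element of the synaptonemal complex, had ratios of -0.78, -0.86, -1.27 and -0.85, with a mean of -0.94 ± 0.13 (SE, n = 4). Kash5, which couples meiotic telomeres to dynein at the nuclear envelope, stood at -0.99, -0.88, -1.21 and -0.65, with a mean of -0.93 ± 0.14 (SE, n = 4). Both lay below 0 on every array, while 15 of the 20 members did not. Neither passed without replicate 1, 2 or 3, and both passed without replicate 4. Adad1, an RNA-binding protein of germ cells, had a mean of -0.44 and an adjusted p of 0.0829. Of 24 spermatogonial genes 0 passed and 1 was under an unadjusted p of 0.05, against 7.37% of all named genes. The median of these 24 was 0.11, and Gfra1, the receptor of stem spermatogonia for GDNF, had a mean of 0.52 ± 0.28 (SE, n = 4).

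Cyp17a1 had the largest fall among the named genes that passed the test. It encodes the enzyme that turns progestins into androgens in Leydig cells. Its ratios were -1.93, -1.80, -2.25 and -2.13, the mean was -2.03 ± 0.17 (SE, n = 4), or 4.08-fold lower, and the adjusted p was 0.000995. The mean was -1.87 with the modifier in Cy5 and -2.19 with it in Cy3. All 4 arrays lay near that mean, in both dye orientations.

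Of 28 Leydig genes 3 were lower (10.7%, against 0.689% of all named genes), namely Cyp17a1, Gstm2 and Ephx1. The list held 0 higher genes, and 25 did not pass. The median was -0.25, with 15 of the 28 below 0 on every array. Without replicate 1, 2 or 3, Cyp17a1 was the 1 Leydig gene left past the threshold, and without replicate 4 there were 2. Within the list the 8 genes of steroid synthesis had a median of -0.73, and 7 of them lay below 0 on every array, while the 6 genes of cholesterol supply had a median of -0.21. The 14 other Leydig markers had a median of -0.18, with 2 called lower and 8 with a fitted mean below 0. Hsd3b2, a steroid dehydrogenase, had ratios of -0.71, -0.62, -1.59 and -1.27 and an adjusted p of 0.101. Hsd3b1, its close relative, had ratios of -1.05, -0.31, -1.25 and -0.71 and an adjusted p of 0.144. The pair is similar in sequence and may share signal on cDNA probes. Cyp11a1, which starts steroid synthesis from cholesterol, and Star, which carries cholesterol into mitochondria, had means of -0.64 and -0.20 and did not pass; these 2 are named after their values were seen.

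Enzymes of glutathione conjugation and detoxification had 5 of 55 genes lower (9.09%, against 0.689% of all named genes) and 0 higher. The median was -0.09. Gstm3 stood at -0.88, -1.06, -1.30 and -1.05, with a mean of -1.07 ± 0.13 (SE, n = 4) and an adjusted p of 0.0067. Gstm2 was at -1.01, -0.87, -1.14 and -0.94, and Gstm5 had a mean of -0.95. These mu-class glutathione transferases are close paralogs, so 3 calls may hold less than 3 separate transcripts. The probes of Gstm5 gave -1.02 and -0.88, and the former did not pass alone. Ephx1, the microsomal epoxide hydrolase, had ratios of -0.89, -0.51, -0.998 and -0.66, with a mean of -0.77 ± 0.12 (SE, n = 4). Prdx4, a peroxidase of the secretory pathway, was at -0.68. Gstm2 and Ephx1 stand in the Leydig list as well. Without replicate 1, 2 or 3 in turn, 0 genes of detoxification passed, and without replicate 4 there were 2.

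Other cell types of the testis gave few or no calls. Sertoli genes had 0 of 25 past limma's adjusted threshold, with a median of 0.01. At an unadjusted p under 0.05 there were 6, 5 of them lower. At that level stood 7.37% of all named genes, 528 lower and 146 higher. Among the 6 Sertoli genes Sparc, a matrix protein, had ratios of -0.56, -0.34, -0.96 and -0.49. Peritubular and vessel genes had 0 of 20 at either level and a median of 0.09. Of 20 macrophage and leukocyte genes 1 was lower (5%, against 0.689% of all named genes). It was Tyrobp, an adaptor of myeloid receptors, with ratios of -0.46, -0.44, -0.83 and -1.0 and a mean of -0.68. The median of that list was -0.04. For tissue that a dissection could carry along, 0 of 9 epididymal genes and 0 of 5 blood genes passed, with 1 in each list at an unadjusted p under 0.05 and medians of -0.19 and -0.06. The epididymal median by array ran from -0.35 to 0.22.

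**Figure D3:**
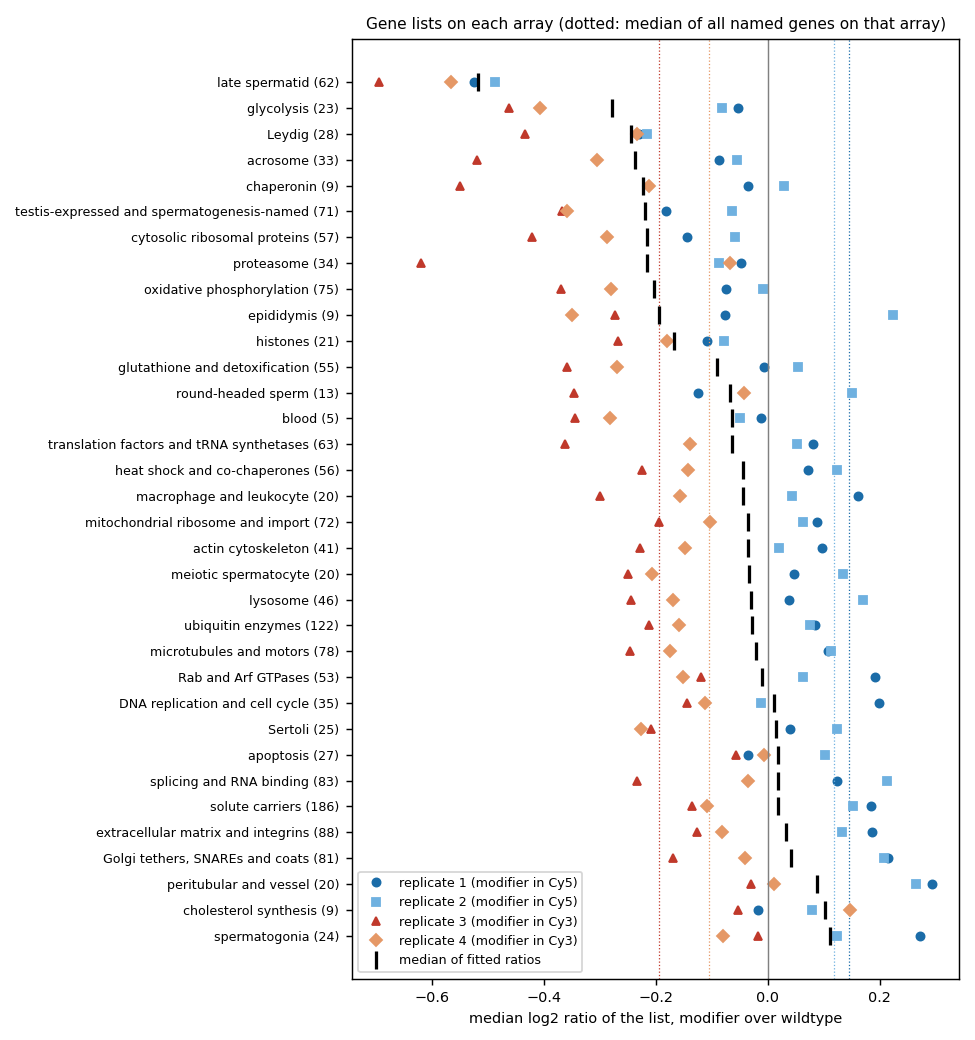
Median log2 ratio of modifier over wildtype (horizontal axis) of each of the 34 gene lists on each array, with a black tick for the median of the fitted ratios; the number of tested genes stands in brackets and dotted lines mark the median of all named genes on each array. The late spermatid list lies lowest, between -0.49 and -0.69 on the 4 arrays.

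Housekeeping families had single calls, against 0.689% lower among all named genes. At an unadjusted p under 0.05 in limma there were 13 of 57 cytosolic ribosomal genes, 12 of them lower. The same level held 20 of 75 genes of oxidative phosphorylation and 6 of 34 of the proteasome, all lower. Of all named genes 7.37% reached that level, 528 lower and 146 higher, so most genes there were lower whatever their list. Among 57 cytosolic ribosomal proteins, with a median of -0.22, the lower gene was Rpl39l, a paralog used in male germ cells, at -0.79 with replicates of -0.65, -0.48, -0.97 and -1.04. Its parent Rpl39 was at -0.56 and did not pass, and the pair may share signal. Among 75 genes of oxidative phosphorylation, whose median was -0.20, it was Atp5c1, the gamma subunit of ATP synthase. Atp5c1 stood at -0.52, -0.52, -0.54 and -1.01, so that replicate 4 was far from the rest. Of 34 proteasome genes 1 was lower (2.94%). It was Psma6, an alpha subunit of the core, with ratios of -0.74, -0.78, -1.14 and -1.18 and an adjusted p of 0.00224. The proteasome list's median was -0.05, -0.09, -0.62 and -0.07 by array, and its fitted median of -0.22 became -0.15 without replicate 3.

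Of 46 lysosomal genes 1 was lower (2.17%, against 0.689% of all named genes). It was Ctsh, a cathepsin, at -0.64, and the median of the list was -0.03. Mitochondrial ribosome and import genes had 0 of 72 past limma's adjusted threshold, 6 at an unadjusted p under 0.05 and a median of -0.03. The chaperonin had 0 of 9, with 1 at the unadjusted level, and a median of -0.22, with replicate 3 at -0.55 and replicate 2 at 0.03. Of the 3 probes of its subunit Cct6b, 1 passed in limma when probes were fitted singly, at -0.71 with an adjusted p of 0.044. Heat shock proteins and co-chaperones had 0 of 56, with 7 at the unadjusted level, and a median of -0.04. Cholesterol synthesis had 0 of 9 at either level and a median of 0.10. At the unadjusted level stood 7.37% of all named genes.

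The machinery in which the Wobbler protein works had no calls among the genes listed for it here, a list that need not be complete. Of 81 genes for Golgi tethers, SNAREs and coats 0 passed in limma's test and 3 were under an unadjusted p of 0.05, and the median was 0.04. Vps52 and Vps53, the partners of Vps54 in the GARP complex, had means of 0.13 ± 0.12 and 0.18 ± 0.13 (SE, n = 4); they are named after their values were seen. Sec23a, of the COPII coat, had the smallest p of the list, with a mean of -0.88, replicates of -0.86, -0.69, -1.16 and -0.82, and an adjusted p of 0.176. Rab and Arf GTPases had 0 of 53, with 1 at the unadjusted level, and a median of -0.01. Microtubules and motors had 0 of 78, with 9 at the unadjusted level and Dynlrb2, a dynein light chain, at -0.49 and an adjusted p of 0.0846. The lists for apoptosis (27 genes), replication and cell cycle (35), splicing (83), translation (63), ubiquitin enzymes (122), solute carriers (186) and extracellular matrix (88) held 0 calls each, with medians between -0.06 and 0.03. At an unadjusted p under 0.05 they held 3, 1, 5, 5, 7, 9 and 2 genes in the same order. The unadjusted counts of this paragraph are to be read beside 7.37% of all named genes at that level.

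Several of the largest falls belonged to genes outside the lists. Amigo2, a cell adhesion protein, had ratios of -1.09, -0.97, -1.50 and -1.58, with a mean of -1.28 ± 0.12 (SE, n = 4). Uck1, a uridine-cytidine kinase, stood at -1.09, -0.98, -1.69 and -1.26, with a mean of -1.26 ± 0.14 (SE, n = 4). Mtdh, a membrane protein of the endoplasmic reticulum and nucleus, was at -1.23, -1.01, -1.48 and -1.30, with a mean of -1.25 ± 0.11 (SE, n = 4). For these 3 genes the arrays with the modifier in Cy3 were the lower pair.

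Cuzd1, a secreted protein with CUB and zona pellucida domains, went the other way between dyes, at -1.48, -1.34, -1.06 and -0.89, with a mean of -1.19 ± 0.15 (SE, n = 4). Mlf1, which shuttles between nucleus and cytoplasm, had its weakest ratio on replicate 1, with values of -0.60, -1.20, -1.33 and -1.06 and a mean of -1.05 ± 0.16 (SE, n = 4). Pgrmc1, a haem-binding membrane protein, was at -1.02, with replicate 3 at -1.45 and the others between -0.82 and -0.93. Stat4, a transcription factor, was at -0.92, Stard6, a lipid transfer protein of germ cells, at -0.78, and Plaat5, a phospholipase and acyltransferase, at -0.75. Each of these genes lay below 0 on every array.

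The other lower genes outside the lists ran from -1.02 to -0.61. They were Ubqlnl, 1700034E13Rik, Ccdc126, Fam205c, 1700009N14Rik, 1700018B08Rik, Zbtb8os, 1700001E04Rik, Chl1, 1700001F09Rik, Cdv3, Cklf, Gpsm1, Chn2, Fam24a, 1700011L22Rik, Gtsf1l, Fam209, Pja1, Btbd10, Smco2, Asnsd1, Ranbp10 and Naca. A further 44 called features had no single gene symbol, 40 of them lower and 4 higher. The largest fall of all features was that of an unnamed probe, with ratios of -3.52, -3.78, -2.37 and -2.43.

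The named gene with a higher ratio was Dbnl, an adaptor between actin and membrane traffic. It had ratios of 0.70, 0.78, 0.30 and 0.39, and its mean of 0.54 ± 0.10 (SE, n = 4) had an adjusted p of 0.0459. The values were higher with the modifier in Cy5 than in Cy3, as the median of all named genes was, but all 4 lay above 0. Dbnl was 1 of 41 tested genes of the actin cytoskeleton, whose median was -0.03. Of the 4 unnamed probes that were higher, 1 was even across the arrays, at 1.62, 1.64, 1.54 and 1.55.

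The comparison was set against that of Wobbler with wildtype, made on 4 other arrays that share the wildtype genotype, by a test of the difference between both log2 ratios. In all, 85 features passed (0.577%), 60 of them with the lower value in the modifier comparison (0.407%), and 43 were among the named genes (0.471%). Of the 63 genes lower with the modifier, 23 differed from Wobbler over wildtype and 40 did not pass. Cyp17a1 was at -2.03 with the modifier and at -0.02 in Wobbler over wildtype, a difference of -2.01 ± 0.24 (SE) with an adjusted p of 0.00866. Spz1 was at -1.33 against 0.48, Tex36 at -1.03 against 0.48 and 1700001E04Rik at -0.90 against 0.46, with adjusted p-values of 0.00331, 0.0022 and 0.00866. Tnp1 at -1.10 against 0.06, Pgk2 at -1.02 against 0.24 and Psma6 at -0.96 against 0.09 also differed. Modifier over Wobbler gave -1.39 for Cyp17a1, -1.30 for Spz1, -0.70 for Tex36 and -0.76 for 1700001E04Rik. It gave -1.13 for Tnp1, -0.68 for Pgk2 and -0.74 for Psma6. For each of these genes that ratio was smaller in size than the difference, and the cause was not tested. H1f6, named after its values were seen, differed in the other direction, by 1.14 ± 0.18 (SE) with an adjusted p of 0.031, since it stood at -1.14 in Wobbler over wildtype. In modifier over Wobbler H1f6 stood at 0.13, far from that difference.

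For the protamines the difference did not pass. Prm2 stood at -1.60 with the modifier and at -0.32 in Wobbler over wildtype, with an adjusted p of 0.116, and Prm1 at -1.15 and -0.30 with an adjusted p of 0.157. Smcp, at -1.12 and -0.42, had an adjusted p of 0.0733. Of the genes with the smallest adjusted p for this difference, 3 were near 0 or small with the modifier and large in Wobbler over wildtype. Znf41-ps was at 0.02 against -2.45, Adgrl4, an adhesion receptor of vessels, at 0.07 against -1.70 and Btk, a kinase of B cells and myeloid cells, at -0.25 against 1.43. The arrays that compare the modifier with Wobbler directly gave 0.24, 0.18 and 0.14 for these 3 genes. Those values lay far from the differences, and the cause was not tested. The spread around the fit was wider on the Wobbler over wildtype arrays, with a median residual SD of 0.409 against 0.198. Replicate 2 of that comparison stood apart, with an SD of 1.61 over its spots against 0.73 to 0.99 on the other 3 arrays and 13.9% of its ratios above 2. Without it 63 features passed for the difference, and 154 features passed in modifier over wildtype. The count of 85 fell to between 9 and 18 when 1 of the 4 modifier over wildtype arrays was left out.

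In the comparison of the modifier with Wobbler the arrays share the modifier genotype, so values are given side by side for the 5 named genes with the largest called falls and for Dbnl. Cyp17a1 was at -2.03 over wildtype and at -1.39 over Wobbler, Prm2 at -1.60 and -1.20, Dbil5 at -1.35 and -1.11, Spz1 at -1.33 and -1.30, Amigo2 at -1.28 and -1.01, and Dbnl at 0.54 and 0.72. A limma test of the difference between these ratios called 0 of 14729 features, with 453 at an unadjusted p under 0.05 (3.08%). A p that misses the threshold does not show that the ratios were equal: for Cyp17a1 the difference was -0.64 ± 0.24 (SE).

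**Figure D4:**
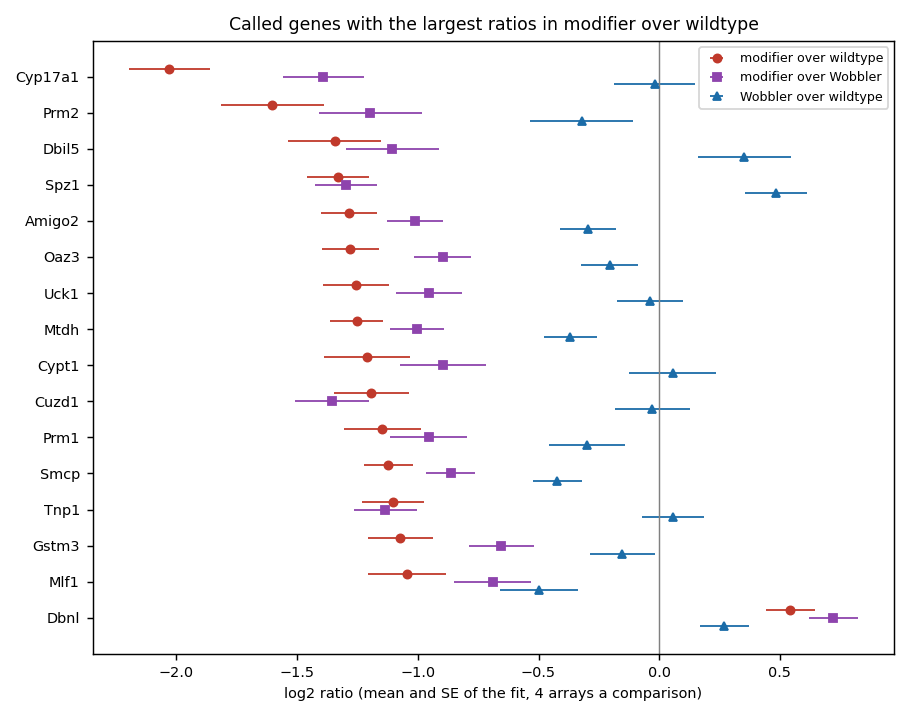
Fitted log2 ratio with its SE (horizontal axis) of the 15 genes with the largest falls among the named genes that passed the test, and of Dbnl, in modifier over wildtype, modifier over Wobbler and Wobbler over wildtype, each from 4 arrays. Cyp17a1 lies at -2.03, -1.39 and -0.02 in the 3 comparisons.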

How the data were processed

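For every spot the authors deposited a log2 ratio, whose base was read from the values. How the slides were scanned, corrected for background and normalized is not given in the sources used here. Channel labels were followed where the labelling protocol speaks instead of a control reference pooled from 6 animals. On each array a repeated value between 15.5 and 16.5, held by 62 to 111 spots of the 4 arrays, was read as a code and set missing. Without intensities no spot could be filtered by signal, and the number of arrays limits the precision. Among spots of these 4 arrays 3.18% to 5.68% lay, after 1 shift per array, at log2 of ratios of whole numbers up to 5 (within 0.001).

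The platform annotation gave 1 symbol to 14030 of 20355 probes, several to 5 and none to 6320. A RefSeq table of GRCm38.p6 lacked 36 of the gene identifiers and changed 0 symbols. Probes of a gene were averaged per array, which gave 16255 features. Those with at least 3 of 4 arrays in every comparison entered a limma fit (3.58.1, R 4.3.3, lmFit and eBayes) over all 12 arrays, with 1 mean per comparison and a dye term, and p-values were adjusted after Benjamini and Hochberg over all 14729 features. Standard errors come from that fit and so rest on the spread over 12 arrays, not 4. The median residual SD was 0.198 on these 4 arrays and 0.312 and 0.409 in the other comparisons. Differences between comparisons are contrasts of the same fit. The fit was tested on simulated data.

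The comparison, the lists and the tests were chosen with earlier results of these data known. Lists are described by counts and medians without a test. Named genes are those past an adjusted p of 0.05 with the same sign on every array, the 15 largest in each direction with each array's value, up to 6 members of a list with the smallest p, and up to 6 genes with the smallest adjusted p of a difference between comparisons. The fit did not use replicate numbers to pair arrays of different comparisons. Alternatives concerned the dye term, centring, scaling, the filter, the averaging of probes, the model, the weights, the prior, the code value, the turning of arrays and the set of arrays. Promoters came from a RefSeq table of GRCm38.p6. Proteins were not used here.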

Additional observations from a re-analysis of the deposited data

Results flagged for a closer look

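In 11 of the 105 sets of 4 array values examined, 1 array lay far from the other 3 by Dixon's criterion, which chance meets in about 1 of 20 sets. Replicate 3 was the distant array for Pgrmc1 at -1.45, Ubqlnl at -1.66, Syce2 at -1.27, Ccdc91 at -1.30, Ropn1 at -1.13 and Btbd10 at -1.05. Replicate 4 was distant for Atp5c1 at -1.01. Replicate 3 was also distant for the median of the Leydig list at -0.43 and of the proteasome list at -0.62. It held the largest share of deposited ratios above 2, 1.16% of its spots, and below -2, 1.79%.

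A difference between modifier over wildtype and Wobbler over wildtype passed an adjusted p of 0.05 in limma for 28 genes named here by the rule. The rule named 23 of them because they were lower with the modifier, which favours a negative difference. Over all 85 features that passed, 60 differences were negative and 25 positive. Among spermatid genes the difference was -1.81 for Spz1, -1.70 for Dbil5, -1.51 for Tex36, -1.38 for Ccdc91, -1.25 for Pgk2, -1.16 for Tnp1 and -1.07 for Oaz3. Modifier over Wobbler gave -1.30, -1.11, -0.70, -0.72, -0.68, -1.13 and -0.90 for these genes in the same order. H1f6, a linker histone already made in spermatocytes and added after its values were seen, had a positive difference of 1.14. Its ratio in modifier over Wobbler was 0.13. Among genes of Leydig cells and detoxification it was -2.01 for Cyp17a1, -1.31 for Gstm5 and -1.19 for Gstm2. It was -1.05 for the proteasome subunit Psma6 and -0.82 for the ribosomal protein Rpl39l. In genes outside the lists it was -1.35 for 1700001E04Rik, -1.22 for Uck1, -1.19 for Pgrmc1, -1.18 for Plaat5, -1.01 for Fam24a, -0.99 for Amigo2, -0.94 for Cklf, -0.90 for Ranbp10, -0.89 for Mtdh, -0.88 for Stard6 and -0.80 for Naca.

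For the other 5 genes the modifier over wildtype ratio itself did not pass. Znf41-ps differed by 2.47, Adgrl4 by 1.77 and Slc25a1, the mitochondrial citrate carrier, by 0.88. Btk differed by -1.68 and Slc30a2, a zinc transporter, by -1.09. Modifier over Wobbler gave 0.24 for Znf41-ps, 0.18 for Adgrl4, 0.36 for Slc25a1, 0.14 for Btk and -0.06 for Slc30a2.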

How the results depend on the processing

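The 108 calls in modifier over wildtype became 439 with arrays scaled to equal spread, 46 without a dye term, 4 with the 4 arrays fitted alone without a dye term and 0 with one. They became 165 with every probe as a feature, 224 with 2 genotype coefficients for the loop, 752 with array weights and 0 with no array turned. Centring, a value on all 12 arrays, a looser filter, a robust prior and the kept code value left the count within 1.5 times. The same held when spots at whole-number ratios were left out, an alternative chosen after seeing the data, with 106 lower and 6 higher. Leaving out 1 of the 12 arrays gave 20 to 154 calls. The cause was not tested. Apart from the unturned reading, 0 of the 64 named genes changed sign under any alternative in which they had a value.

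The 85 calls for the difference from Wobbler over wildtype became 198 with arrays scaled, 14 without a dye term, 144 by probe, 210 with 2 coefficients, 138 with array weights and 0 with no array turned. Leaving out 1 of the 12 arrays gave 9 to 70 calls. The replicate block gave 58 calls in modifier over wildtype and 18 for that difference. Same-numbered arrays of different comparisons had residual correlations from -0.343 to 0.0895. Arrays of different numbers were not set beside them, so whether same-numbered arrays share more than a number was not tested. The difference from modifier over Wobbler gave 0 calls under every alternative that could fit it. That difference could not be fitted with the 4 arrays alone.

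With no array turned, the reading of ratios as channel 1 over channel 2, 56 of the 64 named genes had the opposite sign, and the other 8 kept theirs without passing. The log2 ratio was then 0.0085 for Tnp2, 0.024 for Ranbp10, 0.049 for Gstm2, 0.053 for Prm1, 0.064 for Ephx1, 0.066 for Zbtb8os, 0.073 for 1700018B08Rik, 0.087 for Smcp and 0.091 for Chl1. It was 0.10 for Spz1, Gstm3, Pgk2 and Ropn1, 0.11 for Ccdc91 and Btbd10, 0.12 for Syce2, Chn2, Stard6 and Fam209, and 0.13 for Prm2, Oaz3, Mtdh, Prdx4 and Atp5c1. It was 0.14 for Gstm5, Gsg1 and Smco2, 0.15 for Mlf1, 0.16 for Cyp17a1, 0.17 for Dbil5, Pgrmc1, Pja1 and Asnsd1, and 0.19 for Tnp1, Tex36, Fam205c and 1700001F09Rik. It was 0.20 for Psma6 and Naca, 0.21 for Ubqlnl, 1700034E13Rik and Ctsh, 0.22 for Uck1, Rpl39l and Tex13a, 0.23 for Tyrobp, 0.24 for 1700009N14Rik, and 0.25 for Amigo2 and Cklf. It was 0.26 for H1f7, 0.31 for 1700001E04Rik and 1700011L22Rik, 0.32 for Fam24a, and 0.33 for Cypt1, Hils1 and Gtsf1l. This reading averages arrays of opposite dye order against each other. The log2 median of the late spermatid list stayed between -0.66 and -0.44 under the alternatives that turned the arrays.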
